A study of Homo sapiens with 3 samples.

Results

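Peaks flanking centromeres are the ChIP-seq peaks whose summit lies within 3 Mb of the 3 Mb stretch left open for the centromere in the hg19 human genome assembly. Gap positions were available for 19 chromosomes, which leaves out chromosomes 13, 14, 15 and 22, and members were chosen by position alone. Of 21520 p63 peaks on chromosomes 1 to 22 and X, 777 were flank peaks (3.61%), and of 37883 ZNF148 peaks 1135 were (3.0%). The peaks come from FaDu, an established squamous carcinoma line of the pharynx grown without treatment, which stands here for 1 tumour line and no normal tissue. The first library used an antibody against ΔNp63α (called p63 here) and the second an antibody against ZNF148. The third was input DNA with no antibody and has no peak list used here. The series' title names cooperation of p63 and ZNF148 in head and neck squamous carcinoma, so the comparison between the lists is where their peaks fall on the same DNA. Per the labels, the DNA came from 3 independent ChIP assays, but each antibody has 1 peak list, so the spread between assays is not visible and no difference below has a replicate check. Depth is not given in the lists. The 95% intervals below (Wilson for a share, order statistics for a median) cover counting error over peaks only.

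Chromosome regions beside the centromere differ from the arms. The centromere itself is built of tandem alpha-satellite repeats, and its borders hold further satellite repeats, segmental duplications and sequence that is collapsed or missing in the assembly. p63, a member of the p53 family, is the transcription factor that maintains basal cells of squamous epithelium, and ΔNp63α is its main form in squamous carcinoma. ZNF148 is a zinc finger transcription factor that binds GC-rich DNA. No hg19 sequence or gene annotation was used, so the peaks below are given by position, without gene names, repeats or sequences.

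The gap positions fitted the lists. No p63 peak and no ZNF148 peak had its summit inside a gap. On 19 of 19 chromosomes the longest stretch free of peaks of either list was the one over the gap. It measured 21.1 Mb on chromosome 1, 18.5 Mb on chromosome 9 and 11.2 Mb on chromosome 16, and between 3.02 and 4.26 Mb on the others. On those 3 chromosomes the right flank held no peak of either list. The other 35 of 38 flanks held peaks of both.

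Flank peaks were spread unevenly. Their density was 6.82 p63 peaks per Mb in the flanks and 7.34 per Mb on the remainder of the same chromosomes, and 9.96 and 12.9 per Mb for ZNF148. Leaving out the 3 empty flanks brought the flank densities to 7.40 per Mb for p63 and 10.8 per Mb for ZNF148. The p63 density was therefore close to that of the arms once the empty flanks were set aside, and the ZNF148 density was still below it. By chromosome, the 3 empty flanks were counted at full length. Flank density was then below that of the remainder on 12 of 19 chromosomes for p63 and on 13 of 19 for ZNF148. The chromosomes with an empty flank were among these in both lists. The counts by chromosome were not repeated without the empty flanks, so they do not show whether either list leans apart from them. The flanks held 0.685 p63 peaks for each ZNF148 peak, against 0.564 outside them.

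The right flank of chromosome 20 held the most peaks of both lists together, with 50 p63 and 108 ZNF148 peaks. It was followed by the right flank of chromosome 17 with 41 and 111, the right flank of chromosome 10 with 22 and 67, the left flank of chromosome 17 with 35 and 53, and the left flank of chromosome 8 with 34 and 50. The median flank held 21 p63 and 25 ZNF148 peaks, the empty ones included. ZNF148 peaks outnumbered p63 peaks in 26 flanks, and p63 peaks outnumbered ZNF148 peaks in 8. Among those 8, the left flank of chromosome 9 held 17 p63 and 3 ZNF148 peaks, and the left flank of chromosome X held 16 and 6. On the X flanks that excess came from peaks very close to the gap, described below. The 67 ZNF148 peaks on the right of chromosome 10 include a group of 24 with low enrichment, also described below.

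**Figure D1:**
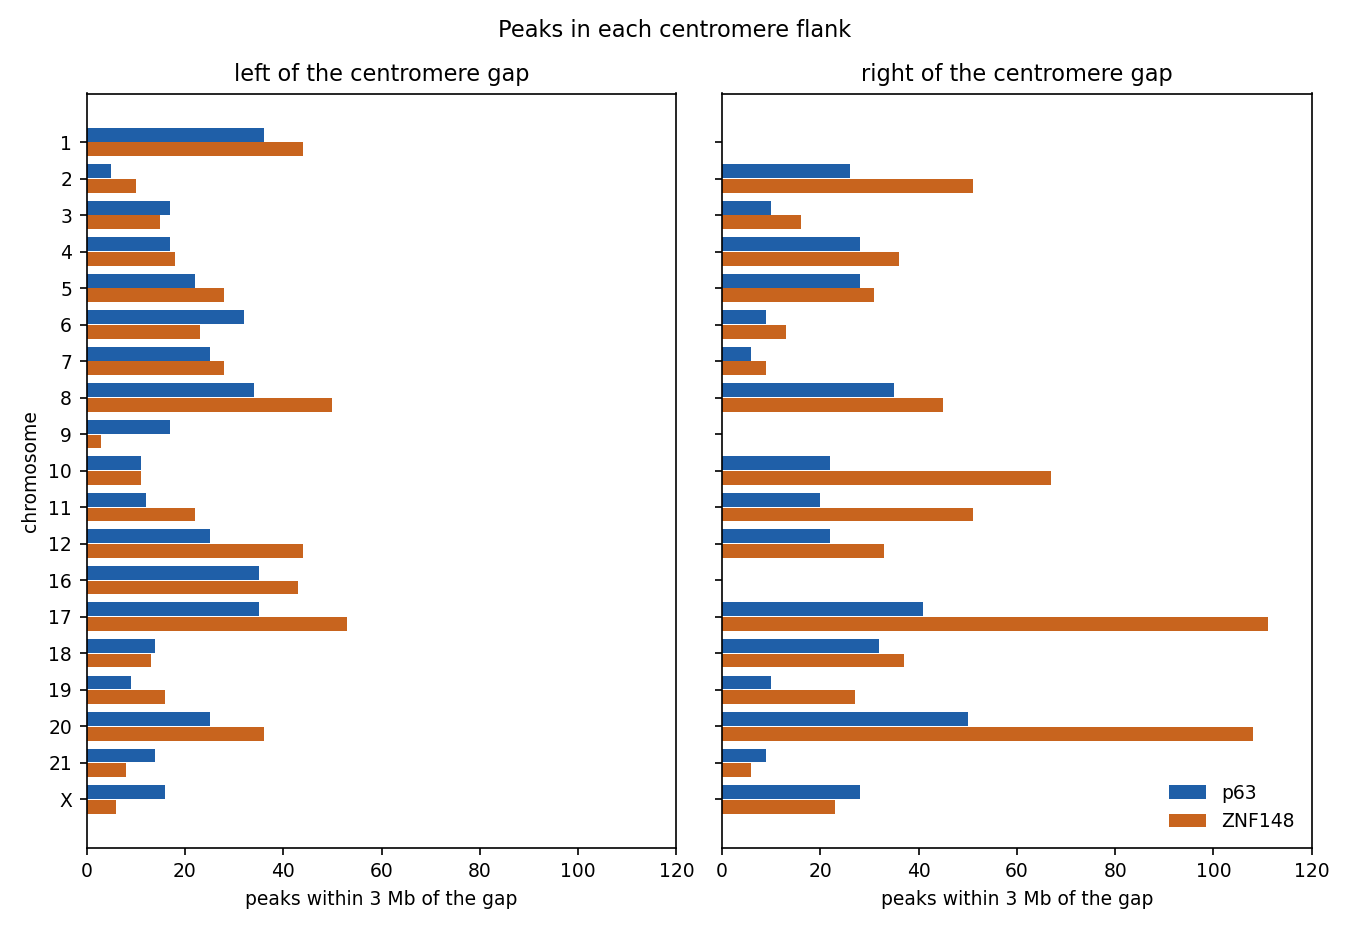
Number of p63 (blue) and ZNF148 (orange) peaks with a summit within 3 Mb of the centromere gap, for each chromosome, on the left and on the right of the gap. The right flanks of chromosomes 20 and 17 held 108 and 111 ZNF148 peaks, and the right flanks of chromosomes 1, 9 and 16 held no peak of either list.

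The bulk of the flank peaks were as enriched as peaks elsewhere. Fold enrichment is the authors' own ratio of the signal at the summit over the local background, and it served here to describe peaks within a list. The median fold was 12.8 for p63 flank peaks (95% interval 11.9 to 13.7, quartiles 8.08 and 23.7) and 13.3 for p63 peaks outside the flanks. For ZNF148 it was 10.0 in the flanks (9.38 to 10.5, quartiles 6.91 and 17.3) and 9.82 outside. A fold of 10 or more was reached by 506 p63 flank peaks (65.1%, against 65.1% of all p63 peaks) and by 568 ZNF148 flank peaks (50%, against 49.6% of all ZNF148 peaks). Peak length was also alike, with medians of 233 bp in the flanks and 236 bp outside for p63, and of 250 and 248 bp for ZNF148. The difference lay in the low tail.

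A fold under 5 was found in 56 p63 flank peaks (7.21%, interval 5.59 to 9.24), against 2.07% of all p63 peaks and 1.88% of those outside the flanks. For ZNF148 it was found in 63 flank peaks (5.55%, interval 4.36 to 7.04), against 1.8% of all ZNF148 peaks and 1.68% of those outside. A low fold can mean little signal or a high background. The deposited fold and p-value of a peak can be solved for both quantities, if the fold is taken as (pileup + 1) / (background + 1) and the p as the upper Poisson tail of the pileup over the background, the default form in MACS2, the peak caller that the submitters name. Solved that way, each of the 21520 p63 and 37883 ZNF148 peaks gave a whole-number pileup to within 0.001 on the −log10 p scale. These are called the implied pileup and the implied background below. They are derived values, unlike the fold and the p, and a low fold and a high implied background are tied by this arithmetic.

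Flank peaks of low fold mostly stood on high background. A background was called high when it reached 10 times the lowest of its list, a limit chosen after the values were seen, which put it at 12.7 for p63 and 3.86 for ZNF148. High background was found at 41 p63 flank peaks (5.28%, interval 3.91 to 7.08), against 0.367% of all p63 peaks and 0.183% of those outside the flanks. It was found at 50 ZNF148 flank peaks (4.41%, interval 3.36 to 5.76), against 0.396% of all ZNF148 peaks and 0.272% of those outside. The flanks thus held 3.61% of the p63 list but 51.9% of its high-background peaks, and 3.0% of the ZNF148 list but 33.3% of its high-background peaks. The high-background flank peaks reached a fold of 3.73 at most in p63 and 4.3 at most in ZNF148, so all of them are among the low-fold peaks. Another 15 p63 and 13 ZNF148 low-fold flank peaks had a lower background. Outside the flanks, 14 of 38 high-background p63 peaks (36.8%) and 30 of 100 high-background ZNF148 peaks (30%) had a fold under 5. Their median folds there were 6.09 and 8.05.

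A peak over a high background passes the threshold only with a pileup above that background, so the pileups here are a description. The median implied pileup was 68 at the 41 high-background p63 flank peaks, 42 over all p63 flank peaks and 38 outside the flanks. For ZNF148 it was 149.5 at the 50 high-background flank peaks, 16 over all flank peaks and 14 outside. The highest implied pileup in the whole ZNF148 list, 293, was at such a peak. With the high-background peaks left out of both sets, 2.04% of p63 flank peaks and 1.82% of p63 peaks outside had a fold under 5, and 1.20% and 1.60% of ZNF148 peaks. The excess of low folds in the flanks was not seen without them. Since all 41 and 50 had a fold under 5, leaving them out of the flanks took away low-fold peaks only. The comparison therefore describes where the low folds lay and is no test. Leaving out chromosome X alone brought the share of p63 flank peaks with a fold under 5 to 4.09%. What raises the background at these places was not tested.

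**Figure D2:**
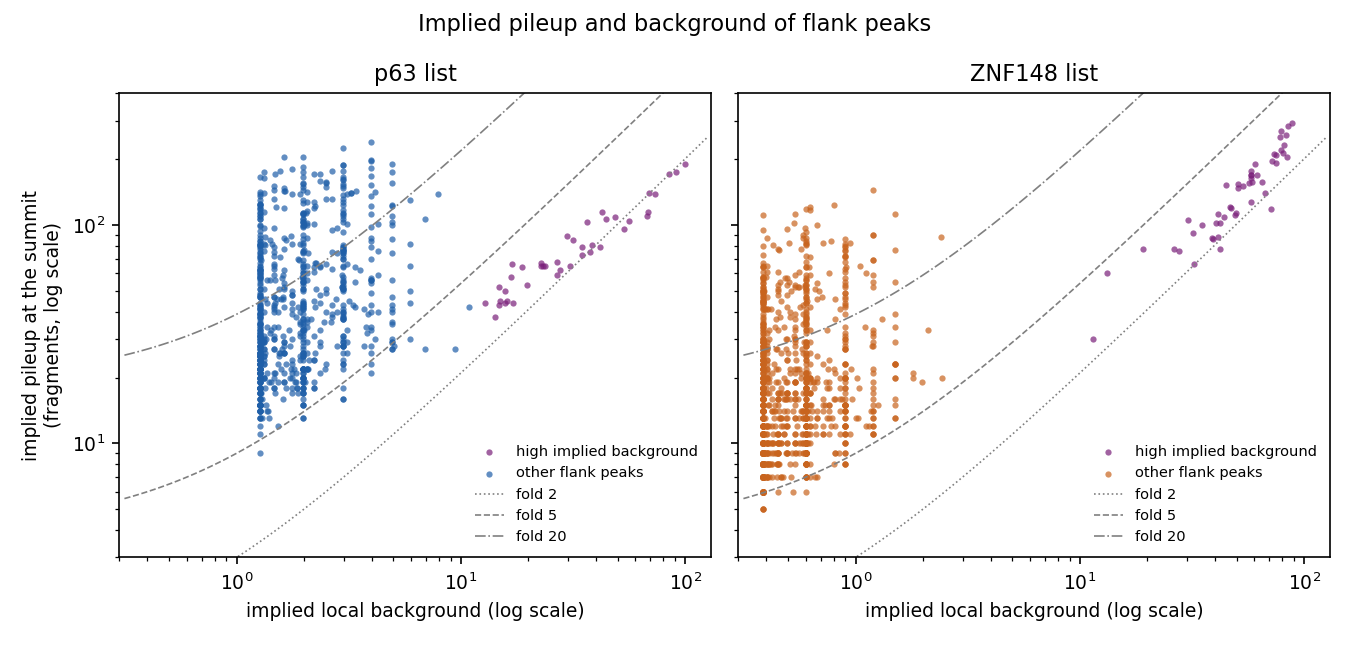
Implied pileup at the summit against implied local background (both on log scales) for the flank peaks of each list, with lines of equal fold. High-background peaks (purple, 41 p63 and 50 ZNF148) lie near and above the line of fold 2, at pileups that reach those of the strongest peaks, apart from the other flank peaks on the left.

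High-background peaks clustered in a few flanks, which differed between the lists, and those of p63 were mostly close to the gap. Of the p63 ones, 35 of 41 lay within 100 kb of the gap, and of the ZNF148 ones 19 of 50. The right flank of chromosome X held 14 p63 ones between 54.7 and 87.7 kb from the gap, and its left flank held 10 between 51.9 and 65.4 kb. The left flank of chromosome 17 held 4 at 9.32 to 17.4 kb with pileups of 104 to 140, and the right flank of chromosome 8 held 3 at 9.42 to 15.3 kb with pileups of 171 to 190. The right flank of chromosome 5 held 3 at 10.5 to 30.7 kb. The left flank of chromosome 21 held 2, and the left flanks of chromosomes 2, 4, 8 and 16 and the right flank of chromosome 20 held 1 each.

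In the ZNF148 list the largest group was 24 peaks on the right of chromosome 10, between 125.2 and 345 kb from the gap, with pileups of 78 to 269. The right flank of chromosome 19 held 10 at 50.1 to 57.5 kb, and the left flank of chromosome 11 held 7 at 52.8 to 64.4 kb. The left flank of chromosome 21 held 2, and the left flanks of chromosomes 2 and 4 held 1 each. The others were on chromosomes 7, 1 and 6. The right flank of chromosome 7 held 3 peaks at 914 to 916 kb, with pileups of 113 to 283. The left flank of chromosome 1 held a peak of 1340 bp with 4 summits (121484086-121485425), 49.8 kb from the gap, with a pileup of 293 over a background of 88.4. The left flank of chromosome 6 held the peak with most summits in either list's flanks, 9 over 3256 bp (58776272-58779527), with a fold of 2.62 and a pileup of 213.

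The high-background peaks called in the p63 list and in the ZNF148 list mostly did not overlap a peak of the other list. High-background peaks were found in 11 flanks for p63 and in 9 for ZNF148, and in both lists in 3, the left flanks of chromosomes 2, 4 and 21. Outside the flanks, 10.5% of 38 high-background p63 peaks and 4% of 100 high-background ZNF148 peaks were shared. Over all peaks the shares were 21.2% and 12.1%. In the flanks, a peak of the other list overlapped 2 of the 41 p63 ones (4.88%) and 2 of the 50 ZNF148 ones (4%). All of those overlaps were on the left of chromosome 21, about 1.46 Mb from the gap, where the p63 peak at 9826703-9827501 had a fold of 2.67 and its ZNF148 partner a fold of 2.50. For the remainder, no summit of the other list lay within 10 kb. Where both lists had an ordinary peak at the same place, the backgrounds mostly kept a similar ratio. Over the 157 flank pairs with summits within 25 bp of each other, the p63 background was 3.28 times the ZNF148 background in the median, and 90.4% of pairs lay between 3.2 and 3.4. Over 2749 such pairs outside the flanks the median was also 3.28, with 89.1% in that range. The ratios ran from 2.11 to 5.89 in the flanks and from 1.41 to 6.60 outside. Many of the flank pairs sat at the lowest background of both lists, 1.27 for p63 and 0.386 for ZNF148. Those lowest values are themselves in that ratio, so such pairs add little to it. At the chromosome 21 sites both lists had high-background peaks. The backgrounds were 29.7 for p63 and 13.2 for ZNF148 at one and 42.5 and 11.4 at the other, outside that range on either side. The summits there were 292 and 30 bp apart, so neither pair belongs to the set within 25 bp, and the comparison is not like for like. The other high-background sites have no overlapping peak of the second list and cannot be set against the ratio, since a background is known here only where a list has a peak.

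**Figure D3:**
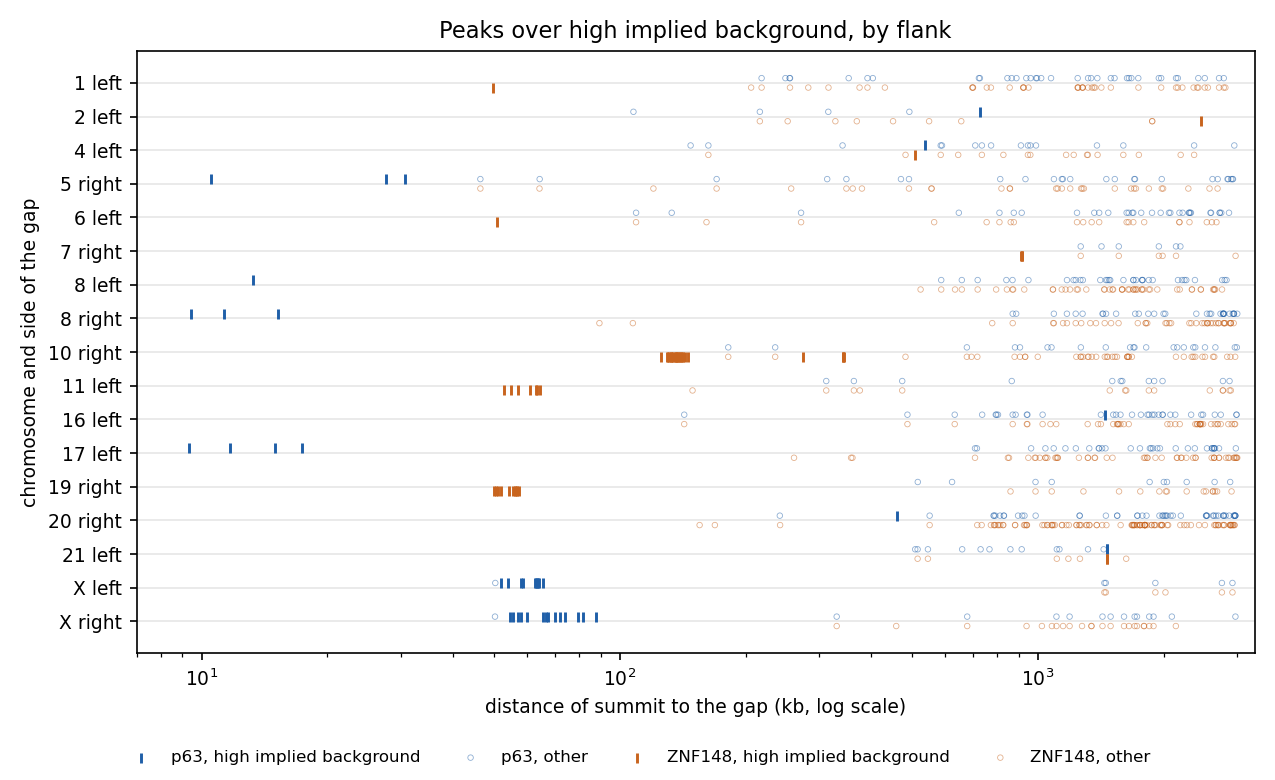
Distance of each summit from the gap (kb, log scale) in the 17 flanks with at least 1 high-background peak, with p63 in blue above each line and ZNF148 in orange below it. Thick bars are high-background peaks and open circles the other peaks. The bars gather within 100 kb of the gap, mainly on chromosome X in the p63 list and on chromosomes 11 and 19 in the ZNF148 list, and they form a block of ZNF148 peaks beyond 100 kb on the right of chromosome 10.

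Neighbouring peaks formed runs, taken as 5 or more peaks of a list with neighbours no more than 12500 bp apart. The p63 flanks held 3 runs with 31 peaks (3.99% of p63 flank peaks, interval 2.82 to 5.61), against 1.82% of all p63 peaks and 1.74% of those outside the flanks, and 26 of the 31 were on chromosome X. Their folds differed widely. On chromosome X, 11 peaks at 58566475-58581667 on the left and 15 at 61682230-61719896 on the right had folds of 2.08 to 3.73 and 1.97 to 3.62, and no ZNF148 peak lay in either run. The run at 49608773-49626500 on the right of chromosome 8 had 5 peaks with folds of 20.2 to 69.1, 2.77 Mb from the gap, among 2 ZNF148 peaks that none of them overlapped.

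The ZNF148 flanks held 23 runs with 174 peaks (15.3% of ZNF148 flank peaks, interval 13.4 to 17.5), against 19.9% of all ZNF148 peaks and 20% of those outside the flanks. The share of ZNF148 peaks in runs was thus lower in the flanks than elsewhere in that list. A fixed spacing gives more runs where peaks are denser. ZNF148 density was 9.96 per Mb in the flanks and 12.9 per Mb on the remainder of the same chromosomes. That difference was not allowed for. A fixed spacing also gives more runs in the longer list, so the lists are not compared. High-background peaks made up 3 of these runs, with 37 peaks and no p63 peak among them. They are 20 peaks at 42380128-42400701 on the right of chromosome 10, 7 at 51579364-51591304 on the left of chromosome 11 and 10 at 27731928-27739624 on the right of chromosome 19. The median distance between neighbouring summits was 563 bp in the chromosome 19 run, 787 bp in the chromosome 10 run and 1971 bp in the chromosome 11 run. The closest spacing among ZNF148 flank runs of ordinary background was 705 bp, at 31168946-31173334 on the right of chromosome 20. In the other such runs the medians ran from 1405 to 6467.5 bp. The chromosome 19 and 10 runs were thus closer than all but the chromosome 20 one, and the chromosome 11 run lay within the ordinary range. The other 20 runs, with 137 peaks, all lay at least 614 kb from the gap and had ordinary backgrounds. Of these, 7 were on the right of chromosome 20 and 5 on the right of chromosome 17, the flanks with most peaks.

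Close to the gap the lists thinned to a few sites once the high-background peaks were set aside. Within 100 kb there were 47 p63 peaks, of which 35 had high background and 26 were on chromosome X. There were 31 ZNF148 peaks, of which 19 had high background. Of the remaining 12 in each list, 6 overlapped a peak of the other. Among these the p63 folds had a median of 11.1 and ran from 2.68 to 48.4. The ZNF148 folds had a median of 8.9 and ran from 5.05 to 66.4. The 12 p63 peaks include the nearest one on each side of chromosome X, with folds of 2.68 and 3.62. Their backgrounds of 9.43 and 10.9 were just under the limit of 12.7, they belong to the chromosome X runs above, and no ZNF148 peak overlapped them.

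The peak nearest to the gap was at 121 kb in the median of 35 flanks for p63, with a range of 9.32 to 1266 kb, and at 155 kb for ZNF148, with a range of 16.2 to 1442 kb. In 12 flanks of each list it was within 100 kb. Taking the nearest p63 peak of each flank, the 5 closest to their gap lay between 9.32 and 13.2 kb, and 4 of them, on the left of chromosome 17, both sides of chromosome 8 and the right of chromosome 5, had high background. The exception was on the right of chromosome 2 at 95335638-95335842, 9.74 kb from the gap, with a fold of 13. On the right of chromosome 3, 22 kb from the gap, both lists had a peak with its summit on the same base, at a fold of 25.2 for p63 (93526876-93527144) and 55.0 for ZNF148 (93526778-93527223). On chromosome X the nearest p63 peaks were at 50.4 kb on the left and 50.3 kb on the right, whereas the nearest ZNF148 peaks were at 1442 and 330 kb.

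**Figure D4:**
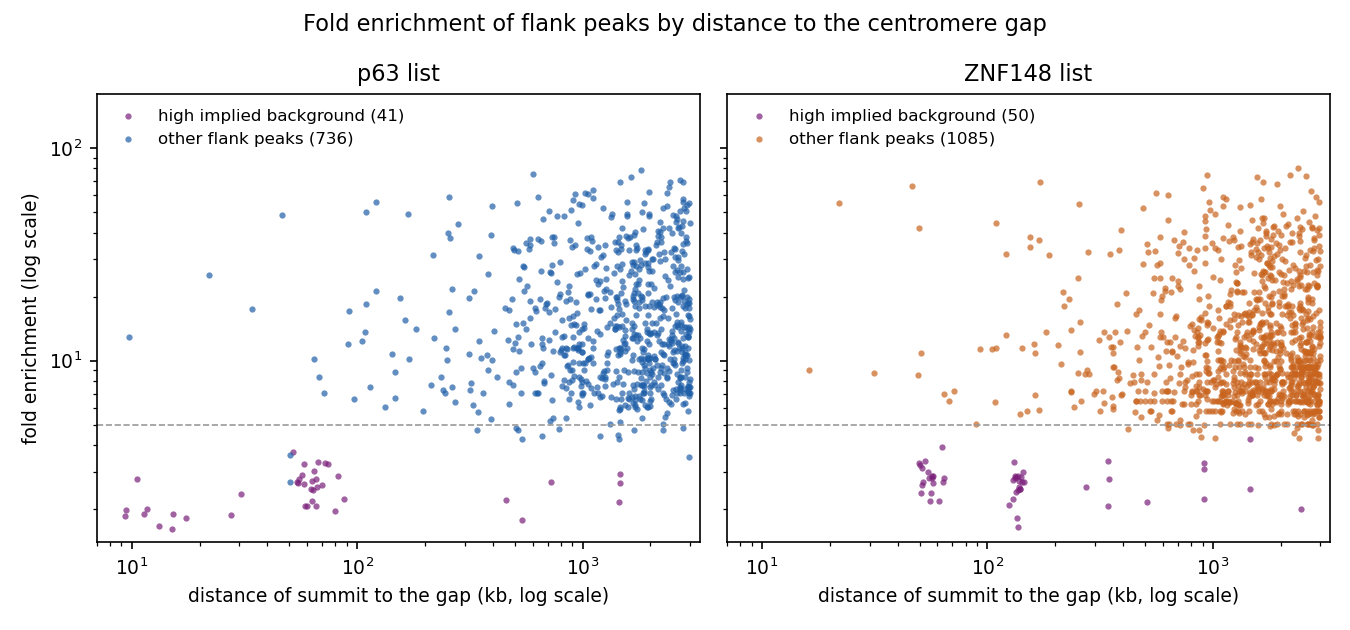
Fold enrichment (log scale) of each flank peak against the distance of its summit from the gap (kb, log scale), for p63 and for ZNF148, with a dashed line at a fold of 5. High-background peaks (purple) lie below the line, 35 of the 41 p63 ones within 100 kb of the gap, and the other flank peaks lie mostly above it.

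Over all chromosomes together, the lists met more often in the flanks than outside them. A ZNF148 peak overlapped 231 p63 flank peaks (29.7%, interval 26.6 to 33.0), against 21.2% of all p63 peaks and 20.9% of those outside the flanks. A p63 peak overlapped 231 ZNF148 flank peaks (20.4%, interval 18.1 to 22.8), against 12.1% of all ZNF148 peaks and 11.8% of those outside. Overlap was counted from 1 bp. The same held for summits within 25 bp of each other, at 157 p63 flank peaks (20.2%, against 13.5% of all p63 peaks and 13.3% outside) and at 157 ZNF148 flank peaks (13.8%, against 7.67% of all ZNF148 peaks and 7.48% outside). The intervals of flank and outside shares did not meet in any of these comparisons. They measure counting error over peaks that share their libraries, so they do not stand for a replicate of the experiment. Overlap shares as high as those of the flanks were also found outside them on single chromosomes. For p63 these were chromosomes X (38.0%) and 4 (30.9%). For ZNF148 they were chromosomes X (25.9%), 4 (24.5%) and 18 (20.6%). Such a level is thus not particular to the flanks.

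Stronger peaks were shared more often in and out of the flanks, so the shares were also set side by side within classes of fold. Among p63 peaks of fold 5 to 10, 15.3% of 215 flank peaks and 8.46% of 6856 peaks outside were shared. At a fold of 10 to 20 the shares were 26.1% and 15.2%, and at 20 or more 53.0% and 40.0%. Flank peaks were thus shared more often in each class from a fold of 5 up. Among p63 peaks of fold under 5, 7.14% of 56 flank peaks and 10.0% of 390 outside were shared, with overlapping intervals. ZNF148 peaks gave the same order from a fold of 5 up, with 7.74% in the flanks and 3.50% outside at a fold of 5 to 10, 22.5% and 10.8% at 10 to 20, and 48% and 35% at 20 or more. At a fold under 5 the ZNF148 shares were 3.17% of 63 flank peaks and 2.59% of 617 outside, with overlapping intervals.

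Sharing was higher nearer to the gap and lower outwards, down to the level outside the flanks, apart from the 100 kb next to the gap. For p63 the share was 12.8% of 47 peaks within 100 kb, 50% of 66 at 100 to 500 kb (interval 38.3 to 61.7), 36.8% of 144 at 500 to 1000 kb, 31.5% of 279 at 1 to 2 Mb and 21.2% of 241 at 2 to 3 Mb. For ZNF148 the shares in the same order were 19.4% of 31 peaks, 29.2% of 113, 29.7% of 182, 20.7% of 421 and 13.1% of 388, so that this list stayed level between 100 kb and 1 Mb and was lower beyond. Summits within 25 bp followed the same course in p63, at 6.38%, 43.9%, 25.7%, 20.8% and 12.4%. The low value next to the gap went with the high-background peaks. Without those, 6 of 12 peaks within 100 kb were shared in each list (50%, interval 25.4 to 74.6), and the ZNF148 share at 100 to 500 kb was 37.1%.

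The fall with distance was also seen within classes of fold. Among p63 peaks of fold 5 to 20, 42.6% of 47 were shared at 100 to 500 kb, 28.4% of 95 at 500 to 1000 kb, 17.5% of 177 at 1 to 2 Mb and 14.0% of 164 at 2 to 3 Mb, against 11.8% outside the flanks. Among those of fold 20 or more, 76.5% of 17 were shared at 100 to 500 kb, 59.5% of 42 at 500 to 1000 kb, 57.9% of 95 at 1 to 2 Mb and 36.5% of 74 at 2 to 3 Mb, against 40.0% outside. The first of these rests on 17 peaks, with an interval of 52.7 to 90.4. The 66 p63 peaks at 100 to 500 kb came from 25 flanks, of which 17 had a shared one. No flank gave more than 7 of these peaks or 4 of the shared ones, so the high share did not come from a single flank.

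**Figure D5:**
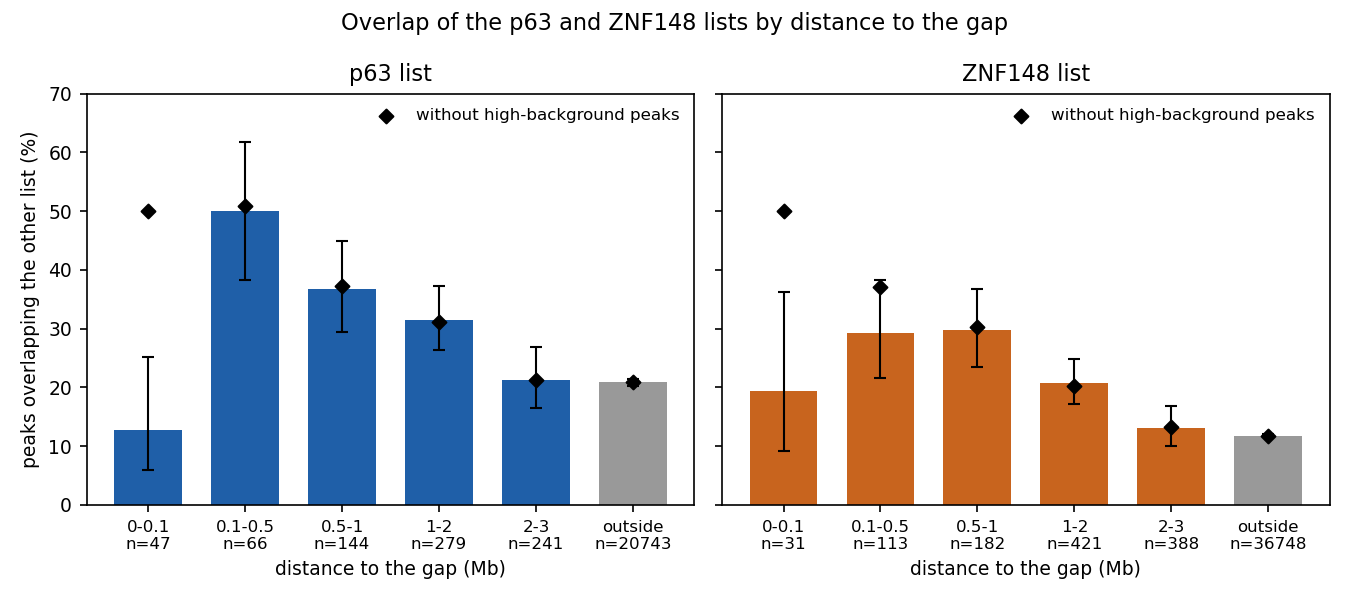
Share of peaks that overlap a peak of the other list (%), by distance of the summit from the gap (Mb), with the number of peaks under each bar. Error bars are 95% Wilson intervals, grey bars the peaks outside the flanks, and diamonds the share without high-background peaks. The p63 share is 50% at 0.1 to 0.5 Mb and 21.2% at 2 to 3 Mb, where it meets the 20.9% outside.

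By chromosome, the shared part was larger in the flanks than on the remainder of the same chromosome on 15 of 19 chromosomes for p63 and on 16 of 19 for ZNF148. The median over chromosomes was 31.9% in the flanks and 20.5% on the remainder for p63, and 24.3% and 11.8% for ZNF148. The largest gaps in p63 were on chromosome 3, at 59.3% of 27 flank peaks and 23% of the remainder, on chromosome 16, at 45.7% of 35 and 13.4%, and on chromosome 19, at 47.4% of 19 and 15.2%. The order was turned round on chromosomes 8, 9, 18 and X for p63 and on chromosomes 2, 8 and 18 for ZNF148. On chromosome 18, 6.52% of 46 p63 flank peaks and 24.2% of the remainder were shared. Median fold showed no such lean, being higher in the flanks on 10 chromosomes and lower on 9 in either list.

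Single flanks ranged widely. On the left of chromosome 3, 11 of 17 p63 peaks were shared, and on the left of chromosome 11, 7 of 12. On the left of chromosome 17, 2 of 35 p63 peaks were shared, on the right of chromosome 18, 1 of 32, and on the right of chromosome 6, 0 of 9. The flanks with most peaks were therefore not those with most sharing. The right flank of chromosome 20 had 8 of 50 p63 peaks shared (16%), and the right flank of chromosome 17 had 12 of 41 (29.3%). Between the sides, 31.4% of 401 left and 27.9% of 376 right p63 flank peaks were shared, and 27.0% of 471 left and 15.7% of 664 right ZNF148 flank peaks.

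The flanks of chromosome X held 2 unlike groups of p63 peaks. Within 100 kb of the gap lay 26 peaks, 11 on the left and 15 on the right, with folds of 1.97 to 3.73, and no ZNF148 peak overlapped any of them. Beyond 100 kb lay 18 peaks with folds of 7.95 to 57.8 and a median of 18.3, and ZNF148 overlapped 16 of them (88.9%, interval 67.2 to 96.9), at 5 of 5 on the left and 11 of 13 on the right. On the other chromosomes 29.4% of 712 p63 flank peaks beyond 100 kb were shared. Chromosome X as a whole had the highest shared part of p63 peaks outside the flanks among the 19 chromosomes, 38.0%.

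At shared sites the enrichments of the lists went together. Over the 157 flank pairs with summits within 25 bp, the median distance between summits was 9 bp, the median fold was 25.6 for p63 and 25.9 for ZNF148, and Spearman's rho between the folds was 0.75. Over the 2749 such pairs outside the flanks the medians were 32.2 and 31.3, with a rho of 0.75. Over overlapping pairs with summits farther apart, rho was 0.52 for 74 flank pairs and 0.15 for 1580 pairs outside. These are descriptions across sites that passed the threshold in both lists, and the sites share the libraries and the local background. Of the overlapping flank pairs 68.0% had summits within 25 bp, against 63.5% outside. Shared p63 flank peaks had a median fold of 22.1 and unshared ones of 11.1, and for ZNF148 the medians were 20.2 and 8.71.

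The pair that ranked best in both lists was on the right of chromosome 5, 46.4 kb from the gap. The p63 peak at 49452245-49452605 had a fold of 48.4 and ranked 74 of 21520 by q value, and the ZNF148 peak at 49452237-49452679 had a fold of 66.4 and ranked 78 of 37883. Their summits were 2 bp apart, and their implied pileups were 239 and 145 over backgrounds of 3.96 and 1.20. Both pileups are the highest among flank peaks without high background in their list. The next pairs were on the left of chromosome 1 at 118823786-118824110, with folds of 70.9 for p63 and 62.7 for ZNF148, on the right of chromosome 11 at 55753794-55754126, with 63.1 and 58.4, on the right of chromosome 10 at 43160882-43161266, with 56.9 and 64.9, and on the left of chromosome 1 at 121279449-121279785, with 58.6 and 54.5 (p63 coordinates). Ranks 6 to 10 were held by pairs on the right of chromosome 8, the right of chromosome 3, the left of chromosome 16, the right of chromosome X and the left of chromosome 1, with p63 folds between 39.8 and 57.8 and ZNF148 folds between 41.4 and 58.8. In each of these 10 pairs the summits were within 22 bp.

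The 10 strongest flank peaks of each list were mostly not among the 10 strongest of the other. By q value, the first 10 p63 flank peaks held ranks 42 to 210 in their list, with folds of 48.4 to 78.6, and 8 of them lay right of the gap. A ZNF148 peak overlapped 5 of the 10, against 53.0% of 230 p63 flank peaks of fold 20 or more and 21.2% of all p63 peaks. The first was at 27070013-27070509 on the right of chromosome 17, 1807 kb from the gap, with a fold of 78.6 and an implied pileup of 205, and its ZNF148 partner had a fold of 25 with its summit 323 bp away. Chromosome 17 gave 2 more, at 26734608-26735041 and 27223880-27224340, with folds of 68.8 and 62.1 and partners of fold 13.4 and 21.4. The second, on the left of chromosome 1 at 118752276-118752665, had a fold of 57.2 and a partner of fold 32.7.

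The p63 peaks with no overlapping ZNF148 peak among these 10 were at 95925792-95926101 on the right of chromosome 2 (fold 75.2), 57060449-57060875 on the right of chromosome 11 (65.8), 64283439-64283807 on the right of chromosome 6 (69.1), 49616797-49617211 on the right of chromosome 8 (69.1) and 24733365-24733709 on the left of chromosome 20 (73.3). The nearest ZNF148 summit was between 1466 and 11856 bp from these. The chromosome 8 one is part of the p63 run described above.

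The first 10 ZNF148 flank peaks held ranks 78 to 278, with folds of 64.9 to 80.8. Of 244 ZNF148 flank peaks of fold 20 or more 48% were shared, and of all ZNF148 peaks 12.1%. Among the first 10, p63 peaks overlapped 3. These were the chromosome 5 peak above, a second one on the right of chromosome 5 at 49576295-49576750, with a fold of 69.3 and a p63 partner of fold 10.2 whose summit was 8 bp away, and the peak at 43160750-43161261 on the right of chromosome 10. The highest fold, 80.8, was at 19880945-19881399 on the left of chromosome 17, where the nearest p63 summit was 9094 bp away. On the right of chromosome 20 lay 3 more, at 30310509-30310921, 30946101-30947099 and 31044846-31045651, with folds of 74.9, 72.6 and 69.3, and no p63 peak overlapped them. The remaining 3 were at 20059351-20059793 on the left of chromosome 17, 12884005-12884506 on the left of chromosome 18 and 41909404-41909802 on the left of chromosome 8, with folds of 74.4, 73.4 and 67.3 and no overlapping p63 peak.

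More than 1 summit was found in 11 p63 flank peaks (1.42%, against 0.846% of all p63 peaks) and in 41 ZNF148 flank peaks (3.61%, against 3.57% of all ZNF148 peaks). Of these, 5 of the 11 p63 ones and 11 of the 41 ZNF148 ones had high background. Among ordinary peaks, the p63 peak at 42123252-42123874 on the left of chromosome 8 had 2 summits and a fold of 40.4, and the ZNF148 peak at 27223983-27224831 on the right of chromosome 17 had 3 summits and a fold of 21.4.

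Across the outer limit of the flanks folds were alike, and the shared part was higher just outside, with overlapping intervals. The last 200 kb inside the 3 Mb limit held 62 p63 and 80 ZNF148 peaks, with median folds of 13.3 and 9.50, of which 10 in each list were shared. The first 200 kb outside held 43 and 60 (5.66 and 7.89 per Mb), with median folds of 13.7 and 10.0. Of those, 11 in each list were shared (25.6% for p63, interval 14.9 to 40.2, and 18.3% for ZNF148, interval 10.6 to 29.9). Over all peaks the shares were 21.2% and 12.1%.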

How the data were processed

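The 2 deposited narrowPeak lists are in hg19 and, per the submitters' processing notes, were made with MACS2 2.2.6, Bowtie2 2.3.4.3, FastQC 0.11.9, MultiQC 1.12 and SAMtools 1.7. For the control library, duplicates and read filters the settings are not given in the sources used here. Per peak, the deposited ratio of signal to local background (the fold), −log10 p-value, −log10 q-value and summit position are the authors' own values. The deposited score was not used. The p63 list had 21922 rows and the ZNF148 list 39669. Rows with the same start and end on chromosomes 1 to 22 and X were taken as 1 peak with its most significant summit, placed by its distance to the gap. Peaks were compared by overlap of at least 1 bp and by summits within 25 bp. Pileup and background were solved from the fold and p of each peak. Of the ZNF148 peaks 35 had 2 solutions, none of them in the flanks, and the higher was taken. With 1 library per antibody no test was possible. Named peaks are the 10 most significant of each list, the 10 best shared pairs, those nearest to a gap, those with most summits, runs, and the flanks with most or no peaks. The members and lists were chosen with earlier results of these data known. Overlaps and solutions were tested on simulated data. Python 3.11.15, numpy 2.4.6, pandas 2.3.3, scipy 1.17.1 and matplotlib 3.10.9 were used. Alternatives changed the flank width, peak threshold, overlap, merging, summits counted and chromosomes.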

Additional observations from a re-analysis of the deposited data

How the results depend on the processing

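Of 90 values other than densities recomputed under 13 settings, 61 lay within the counting interval and 29 outside it. The 22 recomputed densities stayed within 1.5 times the reported ones, from 6.33 to 7.05 p63 and from 8.58 to 10.4 ZNF148 peaks per Mb. Of these, 1 p63 density (6.33, at a fold of at least 5) and 3 ZNF148 densities (8.58 in flanks of 1 Mb, 8.75 after merging and 8.99 without chromosome 17) were below the exact Poisson intervals of 6.34 to 7.31 and 9.39 to 10.6. In flanks of 1 Mb the count ratio of p63 to ZNF148 was 0.788 and the median folds were 11.3 for p63 and 8.74 for ZNF148. Flank peaks with a fold under 5 were 17.9% for p63 and 15.95% for ZNF148 in flanks of 1 Mb, 9.89% and 7.63% in flanks of 2 Mb, 5.2% and 3.97% in flanks of 5 Mb, 5.51% and 4.24% at a −log10 q of at least 5, and 2.60% and 3.99% without the first 100 kb. Without high-background peaks they were 2.04% and 1.20%. That setting was chosen after seeing the data and takes only low-fold peaks out of the flanks. They were 4.09% for p63 without chromosome X, and for ZNF148 7.16% with every summit counted and 3.21% with peaks less than 1 kb apart merged, where the count ratio was 0.755. Overlap in p63 was 35.8% in flanks of 1 Mb, 33.6% in flanks of 2 Mb and 26.4% when 50% of both peaks had to overlap. For ZNF148 it was 28.5%, 24.1% and 18.1%, and 17.8% in flanks of 5 Mb and 23.2% after merging. Summits within 25 bp were found for 26.9% of p63 peaks in flanks of 1 Mb and 23.7% in flanks of 2 Mb. Why these values moved was not tested, except that the narrower flanks hold a larger part of the peaks near the gap. A minimum fold of 5 was not run for low folds, which it removes by construction. Depth limits these values in an unknown way, since the lists give none, and sites under the authors' threshold were not analysed here. Positions missing from hg19 can hold no peak. No paired analysis was possible because each antibody has 1 list and no result comes from a test.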
